A study of Mus musculus with 9 samples.

Results

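Mitosis is the stage of the cell cycle in which duplicated chromosomes are compacted, attached to a spindle of microtubules and parted into separate daughter cells. The genes described here encode that machinery and number 56 of the 55536 genes in the deposited counts table, of which 12849 were expressed enough to test. They were chosen by name for their role, with earlier results of these data known, as were the other gene lists below. Shares of all genes are set beside these lists as description and test no list. The 56 genes were then placed in 6 steps: entry (10 genes), chromosome condensation (7), spindle (10), centromere and kinetochore (13), checkpoint and anaphase (9), and cytokinesis (7). All 56 were found under those names in both deposited tables, and all 56 had counts in every library (at least 43), so none was lost to the filter on low counts.

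The RNA came from B cells of mouse spleen that the labels call pre-GC, before the germinal centre, the structure in which activated B cells proliferate and refine their antibodies. The genotypes were p52Ki (5 libraries, titled p52ki/ki, the usual way to write a knock-in carried by both alleles) and WT (4 libraries). The protein p52 is a subunit of the NF-kB transcription factors and is made from the Nfkb2 gene. Age, strain, immunisation, cell sorting and how the knock-in was built: none is given in the sources used here. Separate mice for separate libraries are not stated either, and p-values therefore cover only the spread between these samples, some of which may be technical.

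Entry into mitosis is driven by the kinase CDK1 bound to a B-type cyclin, and exit by the destruction of that cyclin once the last chromosome is attached. Most of these transcripts are periodic: they accumulate in G2 and M phase and are scarce in resting cells. Germinal centre B cells are among the fastest dividing cells of the mouse. In RNA from bulk cells, fewer cells in G2 and M phase and less mitotic RNA in each cell cannot be told apart.

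Assigned reads totalled 4492160 to 6647650 per p52Ki library and 7368604 to 7937579 per WT library (exact two-sided permutation p = 0.0159, n = 5 and 4). The p52Ki libraries nonetheless detected more genes, 15504 to 16634 in p52Ki against 14033 to 14793 in WT (exact permutation p = 0.00794, the smallest this number of libraries allows). Both differences move with genotype, and their part in the results below was not tested. The B cell markers Cd79a, Cd79b, Ms4a1, Pax5 and Cd22 summed to 8320.4 to 11103 CPM (counts scaled to a common library size) in p52Ki and 7103 to 8277 CPM in WT, and of these Cd79a rose. The germinal centre markers Bcl6, Fas, Gcsam, S1pr2 and Mybl1 summed to 278 to 743 CPM in p52Ki and 1163 to 1588 CPM in WT, so WT cells labelled as before the germinal centre carried its markers. Fas, Gcsam and S1pr2 fell. Markers of T cells (7 genes), NK cells (4), red cell precursors (5) and megakaryocytes (4) summed to at most 20.5 CPM in any library. The 7 myeloid markers summed to 63.3 to 142 CPM in p52Ki and 30.1 to 79.2 CPM in WT, and the erythroid genes Klf1 and Slc4a1 and the neutrophil genes S100a8 and S100a9 had 0 counts throughout. The myeloid marker Lyz2 was at 65.0, 30.2, 14.2, 19.9 and 13.0 CPM in p52Ki replicates 1 to 5, against 4.33, 10.5, 3.55 and 11.7 CPM in WT replicates 1 to 4. Every p52Ki library lay above WT, but Lyz2 did not pass (edgeR adjusted p = 0.0685). Csf1r, Cd68 and Adgre1 overlapped between genotypes and did not pass. Of 4 plasma cell markers Jchain fell, and the 4 together summed to 674 to 1256 CPM in p52Ki and 1436 to 1894 CPM in WT. Jchain and Xbp1 made up most of these sums. Sdc1 went the other way without passing (edgeR adjusted p = 0.0762). It was at 37.9, 21.5, 26.5, 17.6 and 6.74 CPM in p52Ki replicates 1 to 5, against 0, 4.84, 0 and 0 CPM in WT replicates 1 to 4. Prdm1 averaged 8.18 CPM in p52Ki and 7.40 CPM in WT.

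Mitotic transcripts were less abundant in p52Ki at every step. Of the 56 genes, 37 fell and 0 rose (edgeR quasi-likelihood test, adjusted p under 0.05), where 4.04% of all genes tested fell and 4.49% rose. The median log2 fold change was -1.22, beside 0.03 for all genes tested, and 55 of the 56 had a negative value, beside 48.2% of all genes. In 38 genes every p52Ki library lay below every WT library, a pattern seen in 6.53% of all genes, and in 0 genes did every p52Ki library lie above (7.30% of all genes). The 37 genes that fell stood at 32.4% to 59.3% of their WT mean, and 32 of them fell by more than 2-fold (1.99% of all genes). Summed over the 56 genes, the level was 4088, 7381, 5598, 10583 and 5050 CPM in p52Ki replicates 1 to 5, against 16389, 13641, 14270 and 15585 CPM in WT replicates 1 to 4. These sums made up 0.424% to 1.07% of all assigned reads in p52Ki and 1.34% to 1.57% in WT.

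**Figure D1:**
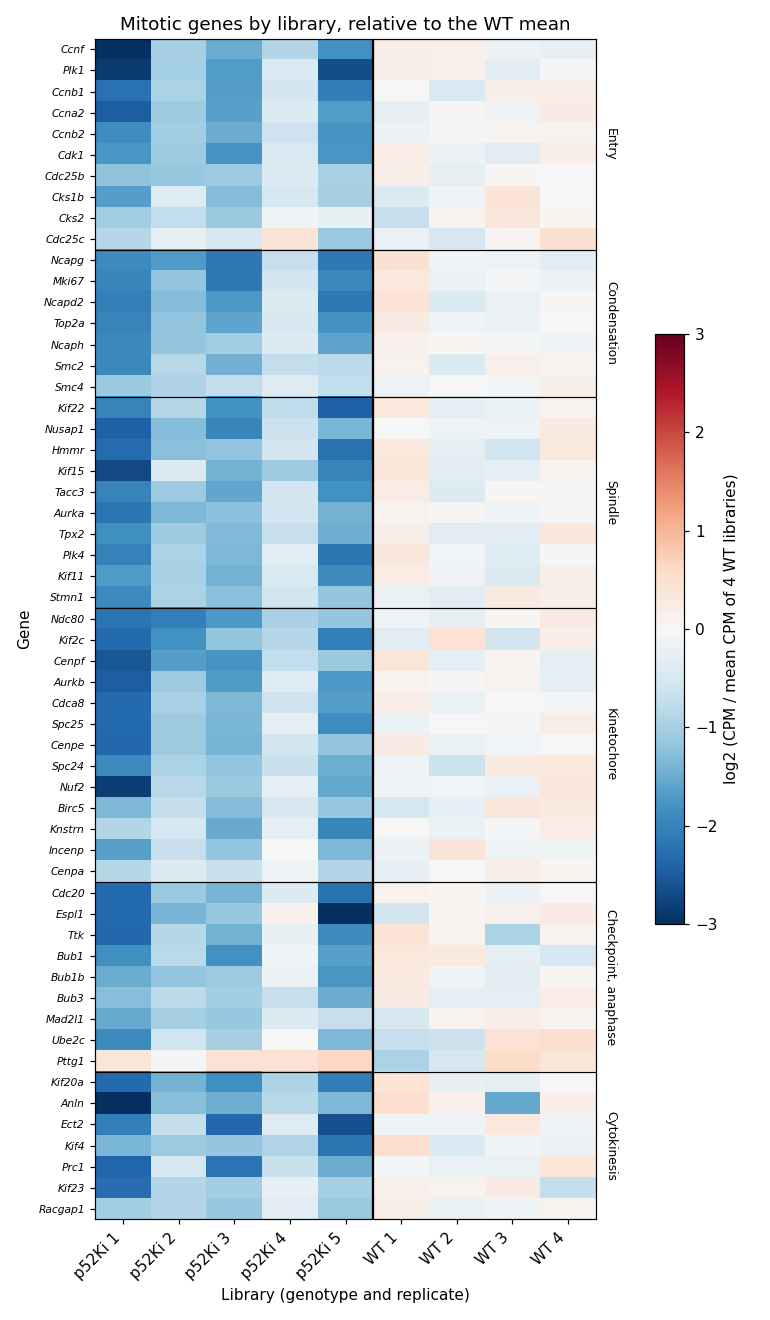
Level of each of the 56 mitotic genes in each library, as log2 of its CPM over the mean CPM of the 4 WT libraries (colour, which stops at -3 and 3), with p52Ki libraries left of WT and genes grouped by step. The p52Ki columns are blue in nearly every row, palest in replicate 4 and darkest in replicate 1, and the Pttg1 row is the exception.

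The count of 37 depended on which libraries entered the fit. Leaving out p52Ki replicates 1 to 5 in turn gave 29, 32, 20, 49 and 25 of the 56 genes, where 2.45%, 3.06%, 2.09%, 4.45% and 2.41% of all genes fell. Leaving out WT replicates 1 to 4 in turn gave 23, 29, 27 and 23, where 2.00%, 2.88%, 2.32% and 2.02% of all genes fell. The genes added without p52Ki replicate 4 were Plk1, Plk4, Spc25, Nuf2, Cenpa, Knstrn, Incenp, Bub1, Ttk, Espl1, Kif23, Ect2 and Prc1, while Kif15 was lost. Of the other methods, limma-voom called 43 of the 56 lower (4.43% of all genes), limma-trend 44 (4.68%) and DESeq2 50 (6.02%), and a correction for GC content and length called 51 (9.70%) while moving the median of all genes to -0.20. With a block for replicate number, only Ndc80 of the 56 was called (0.249% of all genes fell). With every single library left out in turn, 18 genes stayed called: Ccnb2, Cdc25b, Top2a, Mki67, Ncapg, Smc4, Aurka, Tpx2, Nusap1, Tacc3, Ndc80, Cenpf, Kif2c, Cdca8, Bub3, Kif20a, Kif4 and Racgap1.

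**Figure D2:**
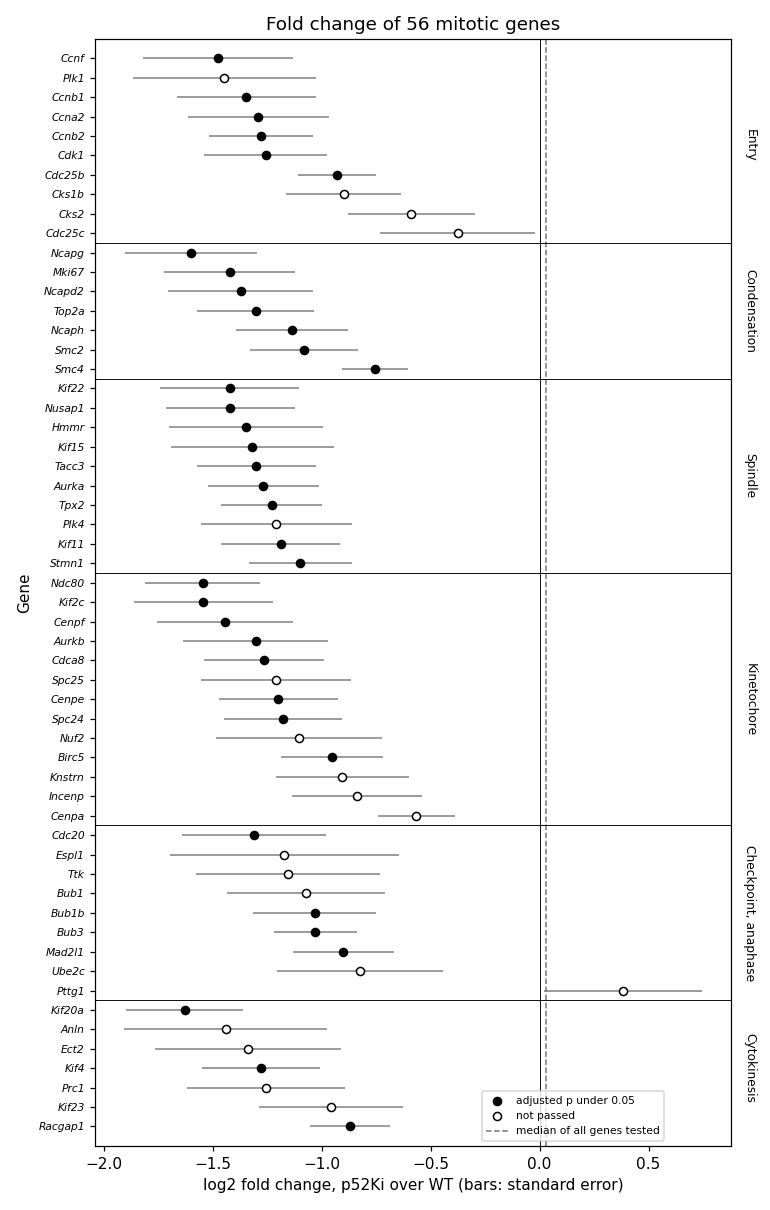
Fitted log2 fold change of each gene, p52Ki over WT, with its standard error as a bar, by step. Filled points passed the test (37 genes) and open points did not (19 genes), and the dashed line marks the median of all genes tested, 0.03.

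Many genes that peak in G2 and M phase share promoter elements: the CHR, with the core TTTGAA, which the DREAM and B-MYB-MuvB complexes bind, and CCAAT boxes bound by NF-Y. RefSeq promoter windows on GRCm38.p6, which run from 250 bases before to 50 bases after a gene start, were matched by symbol to 47 of the 56 genes. TTTGAA, on either strand, was found in the window of 33 of the 47 (70.2%), beside 20.2% of 27025 genes with a window. It lay within 50 bases of the start in 30 of them (63.8%), beside 5.72% of all genes. CCAAT, on either strand and in the 250 bases before the start, was found in 34 of 47 (72.3%) beside 37.5% of all genes, and at 2 or more places in 23 (48.9%) beside 11.5%. Both motifs in those 250 bases were found in 17 of 47 (36.2%), beside 6.45%. The motifs were counted separately, so that a base could belong to both. A match is a run of letters and does not show that a factor binds there.

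The 250 bases before the start are printed for the 7 genes of smallest p that hold both motifs there, to show the elements in place. Each is written 5′ to 3′ on the strand of the gene, with TTTGAA and CCAAT in capitals in either orientation (TTCAAA and ATTGG on the other strand).
Bub3 (chr7:131560120-131560369, plus strand): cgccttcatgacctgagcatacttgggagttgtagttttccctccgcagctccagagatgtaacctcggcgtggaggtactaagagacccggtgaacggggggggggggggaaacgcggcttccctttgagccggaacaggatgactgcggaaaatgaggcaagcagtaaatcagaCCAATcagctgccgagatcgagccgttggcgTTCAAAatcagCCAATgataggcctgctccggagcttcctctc
Ccnb2 (chr9:70421555-70421804, minus strand): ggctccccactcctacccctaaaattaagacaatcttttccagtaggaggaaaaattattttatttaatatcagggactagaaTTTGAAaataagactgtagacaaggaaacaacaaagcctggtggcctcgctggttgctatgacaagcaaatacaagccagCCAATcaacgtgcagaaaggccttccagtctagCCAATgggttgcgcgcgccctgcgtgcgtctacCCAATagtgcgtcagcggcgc
Ncapg (chr5:45669675-45669924, plus strand): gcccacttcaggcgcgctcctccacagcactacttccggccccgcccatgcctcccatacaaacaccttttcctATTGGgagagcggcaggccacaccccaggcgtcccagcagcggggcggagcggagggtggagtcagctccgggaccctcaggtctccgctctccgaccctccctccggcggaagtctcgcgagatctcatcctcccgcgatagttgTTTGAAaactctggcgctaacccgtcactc
Top2a (chr11:99024190-99024439, minus strand): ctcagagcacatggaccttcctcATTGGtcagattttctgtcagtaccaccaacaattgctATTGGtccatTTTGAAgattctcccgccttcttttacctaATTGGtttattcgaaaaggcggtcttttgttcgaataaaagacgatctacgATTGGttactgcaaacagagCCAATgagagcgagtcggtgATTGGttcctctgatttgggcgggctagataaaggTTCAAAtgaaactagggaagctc
Mki67 (chr7:135716380-135716629, minus strand): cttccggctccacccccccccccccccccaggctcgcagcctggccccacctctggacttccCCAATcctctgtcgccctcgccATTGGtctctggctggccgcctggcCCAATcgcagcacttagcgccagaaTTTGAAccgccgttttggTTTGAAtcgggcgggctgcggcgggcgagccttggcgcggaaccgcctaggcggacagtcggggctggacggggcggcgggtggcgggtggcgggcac
Kif22 (chr7:127042421-127042670, minus strand): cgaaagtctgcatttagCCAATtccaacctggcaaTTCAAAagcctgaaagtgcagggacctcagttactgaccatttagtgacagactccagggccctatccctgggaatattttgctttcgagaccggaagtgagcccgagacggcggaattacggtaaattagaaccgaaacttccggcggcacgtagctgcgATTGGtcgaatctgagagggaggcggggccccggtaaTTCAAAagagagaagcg
Cdk1 (chr10:69352913-69353162, minus strand): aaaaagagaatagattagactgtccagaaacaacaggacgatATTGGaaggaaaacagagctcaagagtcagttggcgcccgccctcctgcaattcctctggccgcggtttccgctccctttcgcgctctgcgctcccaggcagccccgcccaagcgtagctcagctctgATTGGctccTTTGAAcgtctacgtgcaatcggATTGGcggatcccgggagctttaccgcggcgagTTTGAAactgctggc
Among the bases printed, the TTTGAA nearest the RefSeq gene start began 15 bases before it in Cdk1, 17 in Kif22 and 23 in Top2a. It began 30 bases before the start in Ncapg and 43 in Bub3. It lay farther away in Mki67 (98) and in Ccnb2 (167), which held another from base 5 of the transcript. The GENCODE annotation starts Cdk1, Kif22 and Bub3 farther upstream, at bases 69352938, 127042471 and 131560222. By those coordinates the matches named for these genes lay inside them. Bub3 also had another RefSeq window, which put the same match 167 bases before its start. Top2a held 6 CCAAT boxes, and Cdk1, Ccnb2 and Mki67 held 3 each. By outcome, TTTGAA lay anywhere in the window of 22 of 30 genes that fell (73.3%) and of 11 of 17 that did not pass (64.7%).

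**Figure D3:**
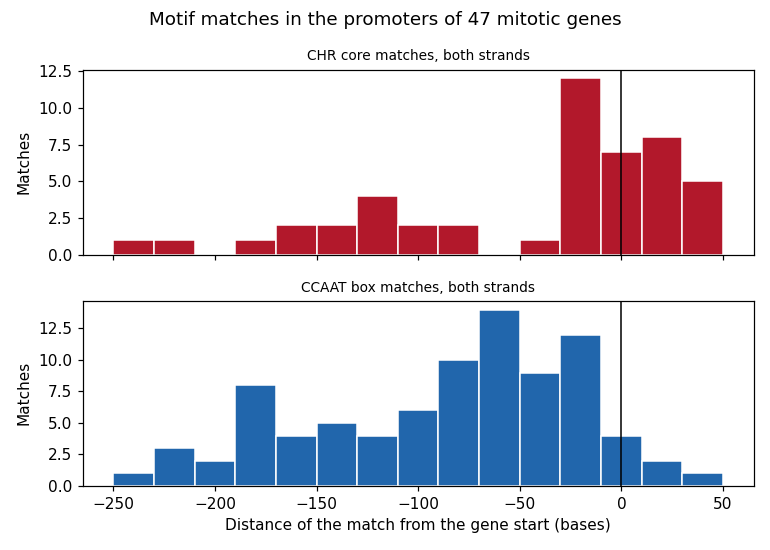
Distance from the gene start of each match to the CHR core (top) and the CCAAT box (bottom) in the promoter windows of 47 mitotic genes, in bins of 20 bases, with negative distances before the start. CHR matches pile up around the start (33 of 48 within 50 bases), and CCAAT matches lie mostly before it (81 of 85), as do 250 of the 300 bases of a window. The 47 genes have 50 windows, and a match that lies in several windows of a gene counts in each.

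Of the 10 entry genes, 6 fell: the cyclins Ccnb1, Ccnb2, Ccna2 and Ccnf, the kinase Cdk1 and its activating phosphatase Cdc25b. The step's median log2 fold change was -1.27. Cdk1, the catalytic subunit (chromosome 10, 69335146 to 69352938, GRCm38), was at 55.0, 88.2, 54.6, 134 and 55.2 CPM in p52Ki replicates 1 to 5, against 217, 163, 145 and 214 CPM in WT replicates 1 to 4. The genotypes did not overlap (log2 fold change -1.26 ± 0.28, edgeR adjusted p = 0.0194), and the call was lost on leaving out p52Ki replicate 3 or WT replicate 1 or 4 (adjusted p up to 0.0553 by edgeR). Ccnb1, the cyclin that carries CDK1 into the nucleus (chromosome 13, 100778650 to 100786570), was at 75.9, 187, 114, 245 and 86.0 CPM in p52Ki replicates 1 to 5, against 364, 262, 410.1 and 404 CPM in WT replicates 1 to 4. The highest p52Ki library, replicate 4, came close to the lowest WT library, replicate 2, without reaching it (log2 fold change -1.35 ± 0.32, edgeR adjusted p = 0.0241). That call was lost on leaving out p52Ki replicate 3 or 5 or WT replicate 1, 3 or 4 (edgeR adjusted p up to 0.0655).

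Ccnb2, the second B-type cyclin and the entry gene of smallest p, was at 97.1, 173, 125.64, 231 and 104 CPM in p52Ki replicates 1 to 5, against 316, 345, 378 and 381 CPM in WT replicates 1 to 4. Every WT library stood above the highest p52Ki library (log2 fold change -1.28 ± 0.24, edgeR adjusted p = 0.00906). Ccna2, cyclin A2, which acts in S phase and G2, was at 61.3, 162, 110.0, 253 and 105 CPM in p52Ki replicates 1 to 5, against 287, 349.6, 316 and 404 CPM in WT replicates 1 to 4. The groups did not overlap (log2 fold change -1.29 ± 0.32, edgeR adjusted p = 0.0297), but the call held only without p52Ki replicate 1 or 4 or WT replicate 1 among the fits with a library left out (edgeR adjusted p up to 0.0806). Ccnf, an F-box cyclin of G2, had the strongest fold change of the step (-1.47 ± 0.34), and its call was lost on leaving out p52Ki replicate 3 or 5 or WT replicate 1 or 2 (edgeR adjusted p up to 0.0601). Cdc25b averaged 198 ± 49.0 CPM in p52Ki and 377 ± 49.8 CPM in WT (log2 fold change -0.93 ± 0.18, edgeR adjusted p = 0.0107).

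The other 4 entry genes did not pass. Plk1, the polo-like kinase that acts from entry to cytokinesis, was at 40.9, 147, 92.5, 218 and 47.4 CPM in p52Ki replicates 1 to 5, against 344, 329, 233 and 284 CPM in WT replicates 1 to 4. The groups did not overlap, but p52Ki replicates 1 and 5 stood far below replicates 2 and 4 (log2 fold change -1.45 ± 0.42, edgeR adjusted p = 0.0553), and among fits with a library left out the gene was called only without p52Ki replicate 4 (edgeR adjusted p = 0.0116). Cks2, a small subunit bound to CDK1, was at 27.7, 34.4, 26.5, 52.1 and 48.9 CPM in p52Ki replicates 1 to 5, against 35.3, 61.3, 72.4 and 58.9 CPM in WT replicates 1 to 4. Here p52Ki replicates 4 and 5 lay above WT replicate 1 (log2 fold change -0.59 ± 0.29, edgeR adjusted p = 0.276). Its paralogue Cks1b was at -0.90 ± 0.26 on the log2 scale (edgeR adjusted p = 0.0583) and, of the fits with a library left out, was called in that without p52Ki replicate 2 (0.0409). Cdc25c, another CDK1-activating phosphatase and the entry gene of largest p, was at 17.1, 25.0, 22.1, 40.3 and 14.3 CPM in p52Ki replicates 1 to 5, against 26.9, 21.9, 32.6 and 42.3 CPM in WT replicates 1 to 4. It was scarce in both genotypes, which overlapped (log2 fold change -0.38 ± 0.35, edgeR adjusted p = 0.613). The number of entry genes called was 3 without p52Ki replicate 5 or WT replicate 1 or 4, and 2 without p52Ki replicate 3. In those fits 2.00% to 2.41% of all genes fell.

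All 7 condensation genes fell, and the median log2 fold change was -1.30. Ncapg, a subunit of condensin I, the ring complex that compacts chromosomes (chromosome 5, 45669919 to 45700546), was at 61.6, 72.0, 52.5, 143 and 52.8 CPM in p52Ki replicates 1 to 5, against 318, 217, 209 and 184 CPM in WT replicates 1 to 4. The highest p52Ki library, replicate 4, still lay below the lowest WT library (log2 fold change -1.60 ± 0.30, edgeR adjusted p = 0.00956). Top2a, the topoisomerase that untangles sister DNA, was at 199, 353, 269, 575 and 232 CPM in p52Ki replicates 1 to 5, against 963, 747, 706 and 797 CPM in WT replicates 1 to 4. Mki67, which coats mitotic chromosomes and is the common marker of cycling cells, was at 313, 540.0, 277, 833 and 318 CPM in p52Ki replicates 1 to 5, against 1532, 1078, 1193 and 1088 CPM in WT replicates 1 to 4. Neither gene overlapped between genotypes, and both were least reduced in p52Ki replicate 4. The log2 fold change was -1.30 ± 0.27 for Top2a and -1.42 ± 0.30 for Mki67 (edgeR adjusted p = 0.0144 and 0.0152).

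Smc4 and Smc2 form the core of both condensins. Smc4 was at 233, 265, 302, 387 and 304 CPM in p52Ki replicates 1 to 5, against 455, 499, 492 and 566 CPM in WT replicates 1 to 4. All p52Ki libraries lay below WT, with the smallest fold change of the step (log2 fold change -0.75 ± 0.15, edgeR adjusted p = 0.0135). Smc2 averaged 99.8 ± 31.8 CPM in p52Ki and 211 ± 36.9 CPM in WT (log2 fold change -1.08 ± 0.25, edgeR adjusted p = 0.0205), and its call was lost on leaving out p52Ki replicate 3 or WT replicate 1, 3 or 4 (edgeR adjusted p up to 0.0572). Ncaph, the subunit that closes the condensin I ring, changed by -1.14 ± 0.26, a call lost without WT replicate 1 (edgeR adjusted p = 0.0510). Ncapd2, another condensin I subunit and the gene of largest p in the step, was at 105, 174, 131, 327 and 97.3 CPM in p52Ki replicates 1 to 5, against 584, 322, 374 and 447 CPM in WT replicates 1 to 4. WT replicate 2 lay below p52Ki replicate 4, so the groups overlapped by that pair (log2 fold change -1.37 ± 0.33, edgeR adjusted p = 0.0260), and with a library left out the call held only without p52Ki replicate 4 or WT replicate 2 or 3 (edgeR adjusted p up to 0.0748). Without WT replicate 1, 4 of the 7 were called (2.00% of all genes fell).

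Of the 10 spindle genes, 9 fell, and the median log2 fold change was -1.28. Tpx2, which promotes microtubule growth near chromosomes and activates Aurora A, was at 93.3, 158, 134, 206 and 120.1 CPM in p52Ki replicates 1 to 5, against 378, 269, 266 and 423 CPM in WT replicates 1 to 4 (log2 fold change -1.23 ± 0.23, edgeR adjusted p = 0.00923). Aurka, the Aurora A kinase of the spindle poles, was at 42.7, 76.7, 82.8, 130.1 and 72.6 CPM in p52Ki replicates 1 to 5, against 211, 199, 179 and 191 CPM in WT replicates 1 to 4 (log2 fold change -1.27 ± 0.26, edgeR adjusted p = 0.0130). In both genes the genotypes were apart, and the p52Ki libraries ranked replicate 4 highest and replicate 1 lowest. Tacc3, a partner of Aurora A on spindle microtubules, and Nusap1, which bundles microtubules at chromosomes, changed by -1.30 ± 0.27 and -1.42 ± 0.29.

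Kif11, the motor that pushes the spindle poles apart, was at 91.2, 150.4, 111, 216 and 79.7 CPM in p52Ki replicates 1 to 5, against 347, 276, 223 and 337 CPM in WT replicates 1 to 4. WT replicate 3 was the nearest to the p52Ki range, above all of it (log2 fold change -1.19 ± 0.27, edgeR adjusted p = 0.0210), and the call was lost on leaving out p52Ki replicate 1 or 3 or WT replicate 1 or 4 (edgeR adjusted p up to 0.0602). Stmn1, stathmin, which destabilises microtubules and is switched off by phosphorylation in mitosis, was at 127, 249, 199, 327 and 215 CPM in p52Ki replicates 1 to 5, against 413, 382, 578 and 537 CPM in WT replicates 1 to 4. Its groups did not overlap (log2 fold change -1.10 ± 0.24, edgeR adjusted p = 0.0164), and without WT replicate 3 the edgeR adjusted p was 0.050005. Kif22, a motor that pushes chromosome arms, and Hmmr, a spindle pole protein, changed by -1.42 ± 0.32 and -1.35 ± 0.35. Hmmr overlapped between genotypes, with p52Ki replicate 4 (106 CPM) above WT replicate 3 (102 CPM). The call of Kif22 ended without p52Ki replicate 3 or WT replicate 1 (edgeR adjusted p up to 0.0537), and with a library left out that of Hmmr held only without p52Ki replicate 4 or WT replicate 3 (up to 0.0981).

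Kif15, a motor that can stand in for Kif11, changed by -1.32 ± 0.37 at the edge of the threshold (edgeR adjusted p = 0.0496). It was called in only 1 fit with a library left out, that without p52Ki replicate 2 (otherwise edgeR adjusted p up to 0.120). Plk4, the kinase that starts centriole duplication and the spindle gene of largest p, was at 30.2, 63.5, 48.4, 97.1 and 26.7 CPM in p52Ki replicates 1 to 5, against 156, 116, 94.0 and 127 CPM in WT replicates 1 to 4. The overlap was between p52Ki replicate 4 and WT replicate 3, and the gene did not pass (log2 fold change -1.21 ± 0.35, edgeR adjusted p = 0.0525). Without WT replicate 1 or p52Ki replicate 3, 5 spindle genes were called (2.00% and 2.09% of all genes fell).

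At centromeres and kinetochores, the sites where chromosomes bind microtubules, 8 of 13 genes fell, and the median log2 fold change was -1.20. Ndc80, the subunit that grips the microtubule (chromosome 17, 71496100 to 71526857), was at 34.3, 37.6, 47.2, 79.2 and 70.0 CPM in p52Ki replicates 1 to 5, against 146, 130.0, 162 and 188 CPM in WT replicates 1 to 4. Every WT library stood above every p52Ki library (log2 fold change -1.55 ± 0.26, edgeR adjusted p = 0.00597). Of its partners in the NDC80 complex, Spc24 changed by -1.18 ± 0.27 and passed (edgeR adjusted p = 0.0205), but not without p52Ki replicate 3 or 5 or WT replicate 3 or 4 (up to 0.0648). Spc25 and Nuf2 had log2 fold changes of -1.21 ± 0.34 and -1.10 ± 0.38 and did not pass (edgeR adjusted p = 0.0506 and 0.103), though their libraries did not overlap between genotypes.

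Cenpa, the histone variant that marks the centromere, was at 135, 184, 155, 220.3 and 135 CPM in p52Ki replicates 1 to 5, against 206, 244, 277 and 257 CPM in WT replicates 1 to 4. It had the smallest difference of the step, and p52Ki replicate 4 lay above WT replicate 1 (log2 fold change -0.57 ± 0.18, edgeR adjusted p = 0.0714). Cenpe, the motor that carries chromosomes to the spindle equator, was at 72.6, 175, 141, 251 and 163 CPM in p52Ki replicates 1 to 5, against 436, 322, 347 and 370.0 CPM in WT replicates 1 to 4. Every WT library exceeded every p52Ki library (log2 fold change -1.20 ± 0.27, edgeR adjusted p = 0.0201), and the call was lost on leaving out p52Ki replicate 3 or WT replicate 1 (edgeR adjusted p up to 0.0560). Cenpf, a large protein of the outer kinetochore, and Kif2c, which takes microtubules apart at centromeres, changed by -1.44 ± 0.31 and -1.54 ± 0.32. Knstrn, an astrin partner at kinetochores, missed the threshold (-0.90 ± 0.30, edgeR adjusted p = 0.0941).

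Of the 4 genes of the chromosomal passenger complex, which corrects wrong attachments and later directs the cleavage furrow, 3 fell. Aurkb, its Aurora B kinase, was at 56.6, 146, 95.9, 239 and 94.5 CPM in p52Ki replicates 1 to 5, against 337, 321, 334 and 258 CPM in WT replicates 1 to 4. The p52Ki libraries lay below WT, replicate 4 only narrowly (log2 fold change -1.30 ± 0.33, edgeR adjusted p = 0.0316), and among fits with a library left out the call held only without p52Ki replicate 1 or 4 (edgeR adjusted p up to 0.0825). Birc5, survivin, was at 86.2, 132, 88.5, 157 and 99.9 CPM in p52Ki replicates 1 to 5, against 150.4, 185, 274 and 263 CPM in WT replicates 1 to 4. WT replicate 1 lay within the p52Ki range (log2 fold change -0.95 ± 0.24, edgeR adjusted p = 0.0284), and the call was lost on leaving out p52Ki replicate 1, 3 or 5 or WT replicate 3 or 4 (edgeR adjusted p up to 0.0855). Cdca8, borealin, changed by -1.27 ± 0.28. Incenp, the scaffold and the gene of largest p in the step, was at 76.5, 146, 106, 237 and 92.8 CPM in p52Ki replicates 1 to 5, against 208, 309, 213 and 213 CPM in WT replicates 1 to 4. There p52Ki replicate 4 exceeded 3 of the WT libraries, and the gene did not pass (log2 fold change -0.84 ± 0.30, edgeR adjusted p = 0.113). The step had 13 genes called without p52Ki replicate 4 (4.45% of all genes fell). It had 5 without p52Ki replicate 5 or WT replicate 3 or 4 (2.02% to 2.41%), and 4 without p52Ki replicate 3 (2.09%).

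Of the 9 checkpoint and anaphase genes, 4 fell, and the median log2 fold change was -1.03. Bub3, a WD-repeat protein that brings checkpoint kinases to kinetochores and also binds spliceosome parts in other phases, was at 259, 365, 307, 394 and 226 CPM in p52Ki replicates 1 to 5, against 750.1, 523, 521 and 736 CPM in WT replicates 1 to 4. It had the smallest p of the step, with no overlap (log2 fold change -1.03 ± 0.19, edgeR adjusted p = 0.00866). Cdc20, the activator through which the checkpoint restrains the anaphase-promoting complex, was at 124, 289, 238, 473 and 133 CPM in p52Ki replicates 1 to 5, against 669.5, 645, 549.6 and 631 CPM in WT replicates 1 to 4. The p52Ki values spread widely while the WT values stayed close together, and the groups were apart (log2 fold change -1.31 ± 0.33, edgeR adjusted p = 0.0316). Its call, and that of the checkpoint kinase-like Bub1b, held only without p52Ki replicate 4 among fits with a library left out (edgeR adjusted p up to 0.0772 and 0.110). Mad2l1, which binds CDC20 while a chromosome is unattached, changed by -0.90 ± 0.23, and with a library left out its call held only without p52Ki replicate 4 or WT replicate 1 (edgeR adjusted p up to 0.0885). The genotypes overlapped in Bub1b and Mad2l1. There p52Ki replicate 4 lay above WT replicate 3 (Bub1b, 227 against 208 CPM) and WT replicate 1 (Mad2l1, 117 against 112 CPM).

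Bub1, the kinase that marks centromeres for the passenger complex, was at 33.8, 69.0, 34.7, 112 and 39.5 CPM in p52Ki replicates 1 to 5, against 151, 150.2, 98.7 and 86.4 CPM in WT replicates 1 to 4. The groups overlapped through p52Ki replicate 4 and WT replicates 3 and 4 (log2 fold change -1.07 ± 0.36, edgeR adjusted p = 0.0978). Ttk, the MPS1 kinase that starts the checkpoint, missed the threshold (-1.15 ± 0.42, edgeR adjusted p = 0.126). Ube2c, the ubiquitin enzyme of the anaphase-promoting complex, was at 34.0, 85.0, 63.6, 128 and 50.2 CPM in p52Ki replicates 1 to 5, against 79.5, 81.5, 172 and 179 CPM in WT replicates 1 to 4. Both genotypes ranged widely and overlapped (log2 fold change -0.83 ± 0.38, edgeR adjusted p = 0.236).

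Pttg1 and Espl1 encode securin and separase, an inhibitor and the protease it holds back until anaphase. Pttg1 was at 25.0, 18.9, 26.3, 26.4 and 29.8 CPM in p52Ki replicates 1 to 5, against 10.1, 13.8, 28.6 and 25.0 CPM in WT replicates 1 to 4. It was the one gene of the 56 with a positive fitted fold change, at low levels with overlapping groups, and it did not pass (log2 fold change 0.38 ± 0.36, edgeR adjusted p = 0.615). Espl1 averaged 43.2 ± 37.7 CPM in p52Ki and 97.6 ± 21.6 CPM in WT and did not pass either (log2 fold change -1.17 ± 0.53, edgeR adjusted p = 0.223). Of these 9 genes, 7 were called without p52Ki replicate 4 (4.45% of all genes fell) and 2 without WT replicate 1 (2.00%). Only 1 (Bub3) was called when any other library was left out (2.02% to 3.06%).

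For cytokinesis, the pinching apart of daughter cells, 3 of 7 genes fell, and the median log2 fold change was -1.28. Kif20a, the motor that moves the passenger complex to the spindle midzone, was at 89.7, 167, 125, 236 and 106 CPM in p52Ki replicates 1 to 5, against 596, 387, 365 and 446 CPM in WT replicates 1 to 4. It had the strongest fold change of the 56 genes (log2 fold change -1.63 ± 0.27, edgeR adjusted p = 0.00518), and 29.3% of its exon bases are shared with Cdc23 on the other strand. Cdc23, a subunit of the anaphase-promoting complex, also fell (log2 fold change -0.84 ± 0.19, edgeR adjusted p = 0.0211), though not without p52Ki replicate 1 or 3 or WT replicate 1 or 4 (edgeR adjusted p up to 0.0626). Kif4, a motor of chromosome arms and midzone, and Racgap1, part of the centralspindlin complex, changed by -1.28 ± 0.27 and -0.87 ± 0.18. Kif20a, Kif4 and Racgap1 kept their calls whichever library was left out.

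Kif23, the other centralspindlin subunit and the gene of largest p in the step, was at 37.9, 99.8, 89.8, 155 and 93.4 CPM in p52Ki replicates 1 to 5, against 207, 199, 219.7 and 113 CPM in WT replicates 1 to 4. WT replicate 4 lay among the p52Ki values (log2 fold change -0.96 ± 0.33, edgeR adjusted p = 0.103), and of the fits with a library left out the gene was called in that without p52Ki replicate 4. Ect2, the exchange factor that switches on RhoA at the furrow, was at 27.0, 68.4, 22.0, 85.2 and 18.0 CPM in p52Ki replicates 1 to 5, against 104, 100.02, 138 and 105 CPM in WT replicates 1 to 4. Its groups were apart but p52Ki replicates 1, 3 and 5 stood well below replicates 2 and 4, and it did not pass (log2 fold change -1.34 ± 0.43, edgeR adjusted p = 0.0782). Anln, anillin, the scaffold of the contractile ring, was at 6.24, 23.8, 20.7, 32.3 and 22.6 CPM in p52Ki replicates 1 to 5, against 81.2, 62.8, 19.8 and 65.3 CPM in WT replicates 1 to 4. WT replicate 3 lay inside the p52Ki range, unlike the other WT libraries (log2 fold change -1.44 ± 0.47, edgeR adjusted p = 0.0832), and of the fits with a library left out the gene was called in that without WT replicate 3. Prc1, which bundles midzone microtubules, did not overlap between genotypes and missed the threshold (-1.25 ± 0.36, edgeR adjusted p = 0.0540), and with a library left out it was called without p52Ki replicate 2 or 4. The number called in this step was 7 with DESeq2 (6.02% of all genes fell) and with the GC and length correction (9.70%). It was 6 without p52Ki replicate 4 (4.45%).

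SMART-Seq v2 libraries keep no strand, and 15 of the 56 genes share exon bases with a gene on the other strand. Shares over 10% were found for 7: Kif20a, Ube2c (22.8%, with Tnnc2), Kif4 (15.1%, with Pdzd11), Ncapg (13.4%, with Lcorl), Cdc25c (12.7%, with Gm3550), Ccna2 (12.5%, with Exosc9) and Prc1 (11.1%, with Rccd1). Reads within those stretches cannot be told apart. Processed copies of Ccnb1 and Ccnb2 took 58 and 25 counts over all libraries, beside 14880 and 14839 for the genes, and the named copies of Kif4, Kif22, Cks1b and Stmn1 took 0.

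Levels between genes were compared per kilobase of exon. On that scale, in mean CPM per kilobase, the same 3 genes led in both genotypes: Cdc20 (135 in p52Ki, 334 in WT), Stmn1 (116 in p52Ki, 249 in WT) and Ccnb2 (95.5 in p52Ki, 232 in WT). Plk1 ranked 8th in p52Ki and 4th in WT. Anln (2.33 in p52Ki, 6.32 in WT) and Cdc25c (4.84 in p52Ki, 6.29 in WT) were among the scarcest in both. Pttg1 ranked 38th of 56 in p52Ki (12.6) and 54th in WT (9.68).

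The p52Ki libraries differed among themselves far more than the WT libraries did. Replicate 4 was the highest p52Ki library in 52 of the 56 genes, and replicate 1 the lowest in 38. Between that pair the level differed by a median of 2.82-fold, and replicate 4 was the higher in all 56 genes. Taken gene by gene, the highest and lowest libraries differed by a median of 3.02-fold among the 5 p52Ki and 1.51-fold among the 4 WT libraries. The median level relative to the WT mean was 24.8%, 50.2%, 38.5%, 72.1% and 32.2% in p52Ki replicates 1 to 5, whereas over all genes tested it was 96.2% to 98.5%. Within p52Ki, 1, 47, 21, 56 and 12 of the 56 genes lay above their genotype mean in replicates 1 to 5, beside 51.0% to 55.0% of all genes.

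**Figure D4:**
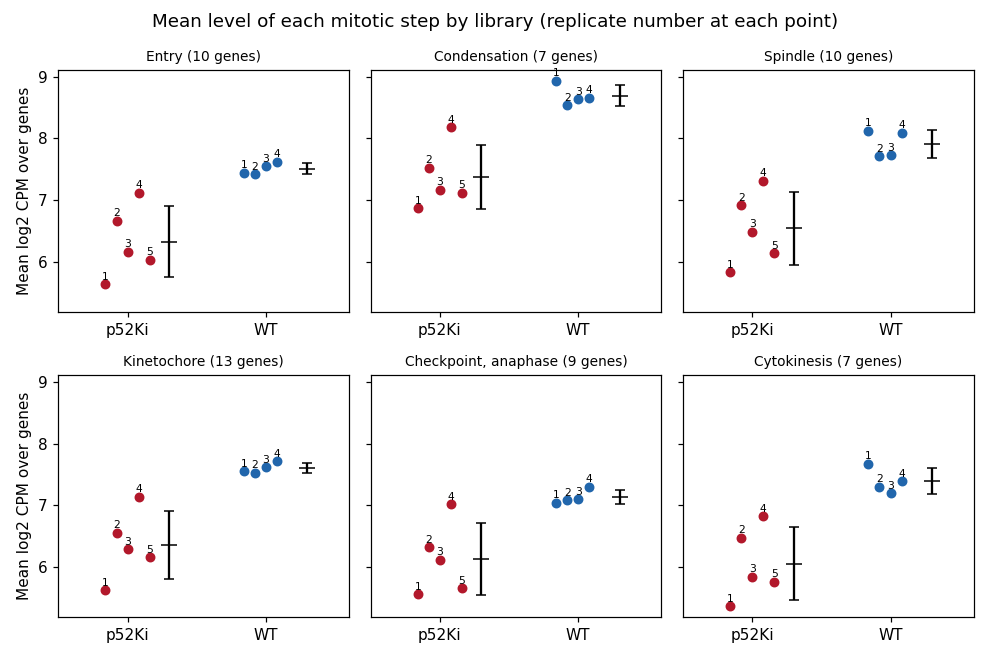
Mean log2 CPM over the genes of each step (y axis) in each library, p52Ki (red) left of WT (blue), with the replicate number at each point and the genotype mean ± SD beside the points. In every step replicate 4 is the highest and replicate 1 the lowest of the p52Ki libraries, and all p52Ki means lie below all WT means.

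The coefficient of variation had a median of 44.4% over the 5 p52Ki libraries and 19.5% over the 4 WT libraries, and it was higher in p52Ki for 52 of the 56 genes. Over the 6812 genes in the same range of mean CPM the medians were 25.0% in p52Ki and 25.2% in WT, and it was higher in p52Ki for 48.3%. The widest spread in p52Ki was that of Espl1, which ran between 9.34 and 106 CPM. The 4 genes with the larger spread in WT were Pttg1, Kif4, Anln and Birc5.

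**Figure D5:**
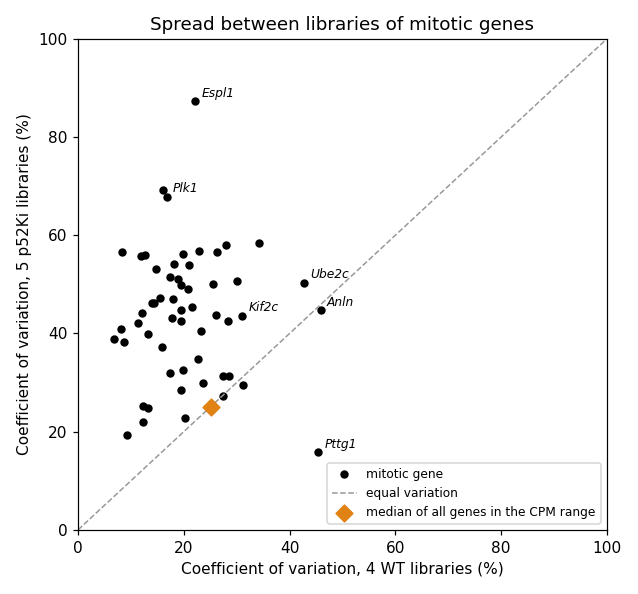
Coefficient of variation of CPM across the 5 p52Ki libraries (y axis) against that across the 4 WT libraries (x axis), 1 point a gene. Of the 56 genes 52 lie above the line of equal variation, while the median of all genes in the same CPM range (diamond) lies close to it, at 25.0% in p52Ki and 25.2% in WT.

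The median log2 fold change of the 56 genes was -1.45 without p52Ki replicate 4 and -1.08 without p52Ki replicate 1. The summed germinal centre markers were 278, 305, 478, 743 and 375 CPM in p52Ki replicates 1 to 5. That sum was also highest in replicate 4 and lowest in replicate 1. Replicate 2 lay below replicates 3 and 5 in that sum but above both in the sum of mitotic genes. Single markers varied: Bcl6 was lowest in replicate 3, S1pr2 and Mybl1 were lowest in replicate 2, and Mybl1 was highest in replicate 3. The part of these markers in the differences between p52Ki libraries was not tested. The sum of B cell markers was lowest in p52Ki in replicate 4, at 8320.4 CPM.

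Another 122 genes of the mitotic machinery that are not among the 56 were also fitted. Of 121 tested, 30 fell (24.8%) and 1 rose, where 4.04% of all genes fell and 4.49% rose. Their median log2 fold change was -0.68, beside 0.03 for all genes tested. By step, 9 of 17 condensation and cohesion genes fell, 8 of 32 kinetochore genes and 4 of 18 checkpoint and anaphase-promoting complex genes. So did 3 of 10 cytokinesis genes, 3 of 13 entry genes and 3 of 31 spindle genes (9.68%, the share nearest that of all genes). Sgo2a, shugoshin 2, which shields cohesin at centromeres, led them, at 22.1 ± 6.24 CPM in p52Ki and 89.8 ± 14.6 CPM in WT (log2 fold change -2.02 ± 0.26, edgeR adjusted p = 0.00200). Knl1, the kinetochore platform for BUB proteins, was at 50.7 ± 20.2 CPM in p52Ki and 144 ± 26.2 CPM in WT (log2 fold change -1.51 ± 0.26, edgeR adjusted p = 0.00626). Hjurp, the chaperone that loads CENP-A, was at 230.4 ± 50.6 CPM in p52Ki and 439.7 ± 81.5 CPM in WT (log2 fold change -0.93 ± 0.19, edgeR adjusted p = 0.0122).

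Ncapg2 of condensin II changed by -1.72 ± 0.32 and Smc1a, a core subunit of cohesin, by -0.68 ± 0.14. Cep55 and Shcbp1, of the midbody and midzone, changed by -1.58 ± 0.31 and -1.60 ± 0.27. Anapc5, a scaffold of the anaphase-promoting complex, averaged 379 ± 63.2 CPM in p52Ki and 714 ± 116 CPM in WT (log2 fold change -0.91 ± 0.16, edgeR adjusted p = 0.00622). These 8 genes stayed called whichever library was left out. Kifc1, a motor that gathers spindle poles, had the second largest fold change of these genes (-1.95 ± 0.45, edgeR adjusted p = 0.0216), and its call was lost on leaving out p52Ki replicate 1 or 5 or WT replicate 1 or 3 (up to 0.0605). Clasp1, which stabilises microtubules in interphase and mitosis, was the single rise, at 131 ± 17.6 CPM in p52Ki and 81.4 ± 13.2 CPM in WT (log2 fold change 0.68 ± 0.17, edgeR adjusted p = 0.0321). Leaving out p52Ki replicate 1, 2 or 3 or WT replicate 2, 3 or 4 ended that call (edgeR adjusted p up to 0.0818), as did the GC and length correction. The number of these genes called lower was 14 without WT replicate 1, 16 without p52Ki replicate 1 or WT replicate 4, and 17 without p52Ki replicate 3 or 5. In those fits 2.00% to 2.45% of all genes fell.

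Genes of DNA replication, the step before G2, were set beside the mitotic genes library by library. Of 25 such genes 18 fell (72%, beside 4.04% of all genes), 0 rose and the log2 fold changes had a median of -0.95. The number was 9 to 11 when p52Ki replicate 1, 3 or 5 or WT replicate 1, 3 or 4 was left out (2.00% to 2.45% of all genes fell). The mean log2 CPM of the mitotic genes minus that of the replication genes was -0.78, -0.59, -0.60, -0.38 and -0.69 in p52Ki replicates 1 to 5, against -0.43, -0.35, -0.36 and -0.29 in WT replicates 1 to 4. The groups overlapped, since p52Ki replicate 4 lay above WT replicate 1. These differences are descriptions of a chosen list and carry no test.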

How the data were processed

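RNA from 9 samples of mouse spleen B cells was sequenced. Per the labels' protocols, cDNA was made with SMART-Seq v2, amplified by PCR and cut with Nextera XT, with paired-end reads. The method marks neither strand nor molecule, so that counting intervals would not cover PCR error. Build GRCm38, featureCounts, Subread 1.6.2, SAMtools 1.8 and HISAT2 2.1.0 are named in the submitters' processing notes. The annotation and strand setting of the alignment were not given in the sources used here. Raw counts for 55536 genes and log2 CPM values for 12849 genes were deposited by the authors. The deposited log2 CPM values equal those edgeR gives from the counts (largest difference 4.97e-14).

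The genes, their steps and the other lists were chosen with earlier results of these data known. Every library entered 1 fit: edgeR 4.0.16 in R 4.3.3, genes kept by its default expression filter (the same 12849), TMM scaling, a robust quasi-likelihood F test of p52Ki against WT with no covariate, and Benjamini-Hochberg adjustment over all genes tested, at a threshold of 0.05. The standard error is the log2 fold change divided by the root of its F value, and errors after ± are SE for fold changes and SD for levels (n = 5 p52Ki and 4 WT). CPM used the TMM-scaled library sizes. On simulated counts (12319 genes tested) this fit recovered 30% of 2-fold and 58% of 4-fold changes, and 1.12% of its calls were false. These shares were not worked out for the mitotic genes alone and do not give the recovery or false share for them. A gene that did not pass is not shown to be unchanged. Of the identifiers, 55450 matched GENCODE M21, which gave coordinates (GRCm38) and exon lengths. No 2 libraries of a genotype agreed within sampling noise (chi-square per degree of freedom at least 24.2).

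Values in every library are given for genes fixed by role and for those of smallest and largest p in each step. Of the other mitotic genes, the 8 of smallest p that fell, up to 5 that rose and the 3 of largest fold change are named. Alternatives were DESeq2 size factors, no filter, a filter of 10 CPM in 4 libraries, removal of antibody and T cell receptor genes, a replicate block, each library left out, DESeq2 1.42.0, and limma 3.58.1 (voom with quality weights, and trend on the deposited log2 CPM). A correction for GC content and length was added after seeing the data. Some cell type markers are not reported here, and marker sums leave them out.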

Additional observations from a re-analysis of the deposited data

Results flagged for a closer look

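In 7 of 112 sets of values (each of the 56 genes in each genotype), a single library stood apart from the rest of its genotype, where chance gives about 1 in 20. The number is close to that share, so the cases below are listed as values only. In p52Ki it was replicate 4 each time, the highest library. Replicate 4 was the highest in 52 of the 56 genes, so the p52Ki cases are not independent of each other. Ncapg was at 143 CPM there (the other p52Ki libraries at 52.5 to 72.0 CPM), Racgap1 at 218 CPM (125 to 150.4 CPM) and Cdc25b at 283 CPM (163 to 194 CPM). All 3 values still lay below every WT library. In WT the libraries differed from gene to gene. Incenp was at 309 CPM in replicate 2 (208 to 213 CPM in the other WT libraries), Ect2 at 138 CPM in replicate 3 (100.02 to 105 CPM) and Nuf2 at 153 CPM in replicate 4 (106 to 113 CPM). Smc2 was at 156 CPM in replicate 2, the lowest (224 to 235 CPM).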

How the results depend on the processing

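Of the 37 mitotic genes that fell, 18 passed whichever library was left out; the median log2 fold change of the 56 was negative under every alternative (-1.45 to -1.08). Without 1 library, the number that fell was 20 to 49 over all 56 genes, 2 to 7 for entry, 4 to 7 for condensation, 5 to 9 for spindle, 4 to 13 for kinetochore, 1 to 7 for checkpoint, 3 to 6 for cytokinesis, 14 to 34 for the other mitotic genes (0 to 1 rose) and 9 to 19 for replication. In those fits 2.00% to 4.45% of all genes fell. Cytokinesis gave 7 with DESeq2 (6.02% of all genes fell) and with the GC and length correction (9.70%). It gave 5 with limma-trend (4.68%) and voom (4.43%). Kinetochore gave 13 with DESeq2 and with the GC and length correction. Of the other mitotic genes, 50 fell and 0 rose with that correction, which moved the median of all genes to -0.20. With no filter on low counts 0 of them rose. For those settings the cause was not tested. Same-numbered samples did not move together over all genes: their deviations from the genotype mean correlated at -0.042, -0.017, -0.013 and -0.009. Such values cannot show whether same-numbered samples shared a batch. With the replicate block, which leaves p52Ki replicate 5 with no partner, 0.249% of all genes fell: 1 of the 56 (Ndc80, in the kinetochore step, edgeR adjusted p = 0.0367), 0 in each other step, 1 other mitotic gene (0 rose) and 1 replication gene.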
